A study of Mus musculus with 6 samples.

Results

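The genes described here are 9 that carry the type I interferon signal in mouse cells: the transcription factor genes Irf1, Irf2, Irf3, Irf7 and Irf9, the signal transducer gene Stat2, the receptor genes Ifnar1 and Ifnar2, and the kinase gene Jak1. They were taken by symbol from a count table of 24794 genes, and all 9 had a row. Polyadenylated RNA was sequenced from Lewis lung carcinoma (LLC) cells, a mouse cell line that grows as a tumour when transplanted. Cells of 3 libraries had received miR-291-3 mimics, synthetic RNA that by the series' design text raises miR-291a-3p, and cells of the other 3 a mimics control. No other treatment, time or genotype is given in the labels, and the sources used here do not state the transfected dose, the mimic's own sequence or the number of separate cultures. The p-values therefore measure the spread between libraries, which may be technical, and in such bulk samples fewer cells of a type and less RNA per cell cannot be told apart.

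Type I interferon binds a receptor made of IFNAR1 and IFNAR2. The kinases TYK2 and JAK1, bound to these chains, phosphorylate STAT proteins, among them STAT2, which join IRF9 to form the complex ISGF3 and bind the interferon-stimulated response element (ISRE) in front of target genes. IRF3 and IRF7 act upstream, where they switch on interferon genes after foreign nucleic acid is sensed. IRF1 activates many of the same targets, including genes of antigen presentation, and IRF2 was first described as its antagonist at shared binding sites.

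In the mimic libraries 4 of the 9 genes fell, the transcription factor genes Irf2 and Irf1, Stat2 and Jak1, and none rose. The receptor genes Ifnar1 and Ifnar2 and the factor genes Irf3 and Irf9 did not pass the test, and Irf7 had too few counts to be tested. The fall was largest for Irf2, by 43.8%, and between 12.2% and 16.3% for the other 3. Of all 13779 genes tested 24.8% fell (3423 genes) and 24.3% rose (3349 genes), at an adjusted p under 0.05 by edgeR's quasi-likelihood test with Benjamini-Hochberg adjustment, so 4 of 8 tested is a count of few genes against a high background. Scaled by total counts alone, 4444 genes fell and 2341 rose, with the same 4 of the 9 among those that fell. The median log2 change of the 8 was -0.12, against -0.01 over all genes tested. DESeq2 called 3 fallen and 0 risen, against 2424 fallen and 2805 risen of the 13738 genes it tested. The counts at an unadjusted p under 0.05 (edgeR) were also 4 fallen and 0 risen. The share of all genes at that looser threshold was not computed, so these counts have no background to be read against. All 8 estimates lay below 0, as did the median over all genes tested. Those of Irf3, Irf9, Ifnar1 and Ifnar2 were only -0.05 to -0.02, with 95% intervals that include 0. Between 42.5% and 47.7% of all genes tested had a lower log2 change than each of them. Groups that did not overlap, with every mimic library below every control library in CPM (counts scaled to the library's size), were found for 3 of the 9 genes, Irf2, Stat2 and Jak1, and for 27.9% of all genes tested.

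**Figure D1:**
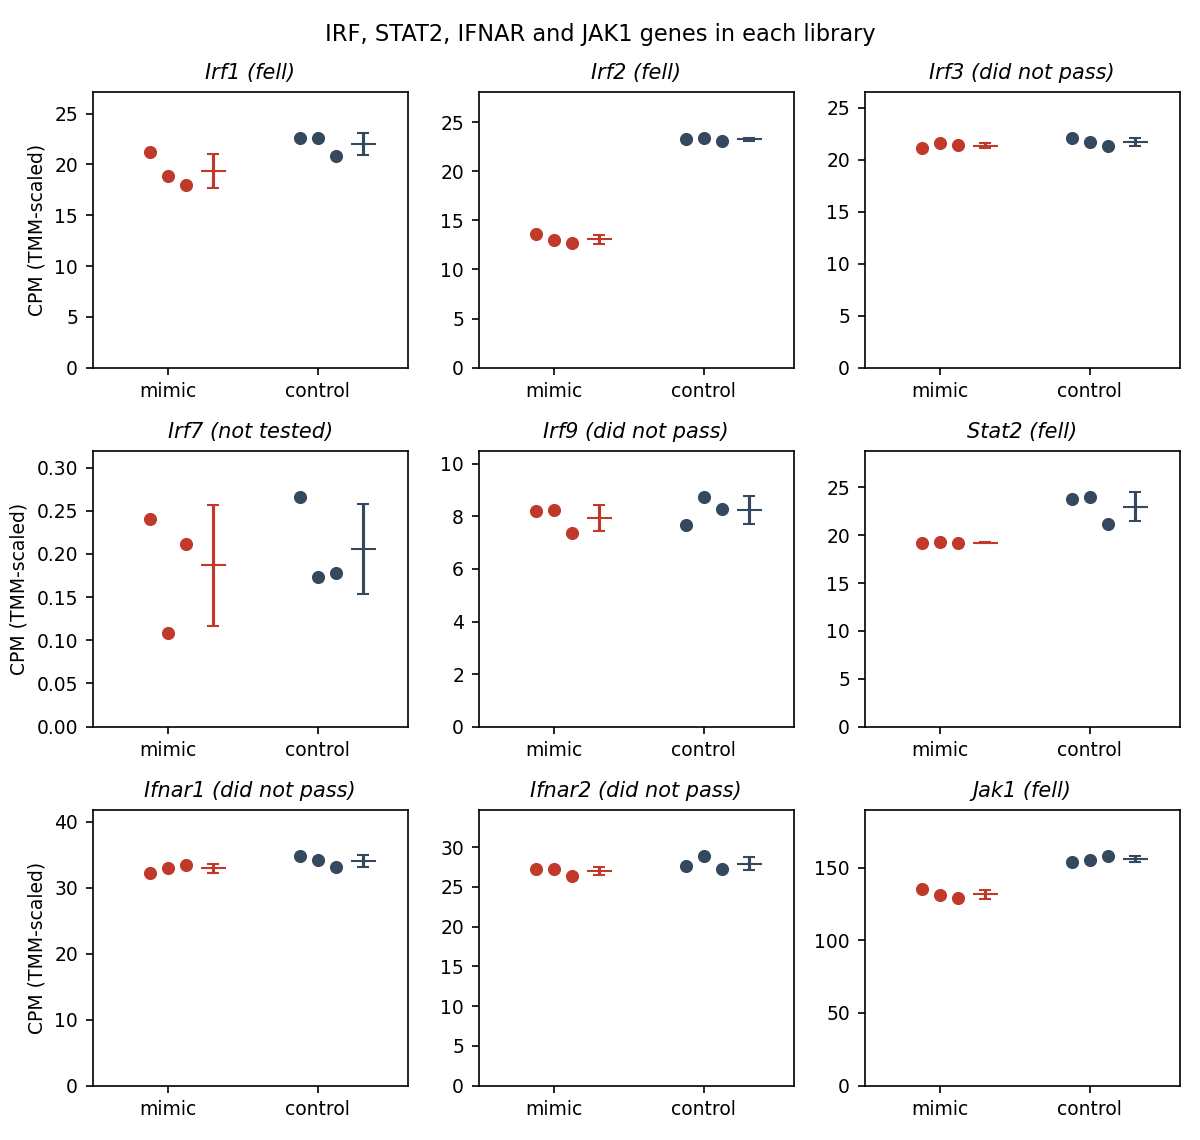
CPM, scaled by the trimmed mean of M values (TMM), of each of the 9 genes in the 3 mimic libraries (left of each panel) and the 3 control libraries (right); each axis starts at 0, and bars show the mean and SD. Irf2, Stat2 and Jak1 are lower in all 3 mimic libraries, while Irf7 stays under 0.3 CPM in every library.

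Irf2 changed most. It had 13.6, 13.0 and 12.7 CPM in the mimic libraries, against 23.3, 23.4 and 23.1 CPM in the control libraries. The gene lies at chr8:46739732-46847458 (GRCm38, plus strand). The groups were far apart and the libraries within each nearly equal. Its mean was 13.1 ± 0.488 CPM in mimic and 23.3 ± 0.141 CPM in control libraries (SD, n = 3 each), and its log2 change was -0.83 ± 0.06 (SE; adjusted p = 3.91e-13, edgeR). Of the genes tested, 2.06% had a lower log2 change. Over the 6 libraries the log2 CPM of Atad2, Gdf11 and Stmn1 followed that of Irf2 most closely (Pearson's r of 0.9998, 0.9996 and 0.9995), a likeness that the difference between the groups largely sets, and their own log2 changes were -0.26, -1.16 and -0.62.

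The 3' untranslated region (UTR) of Irf2 holds the longest kind of match to the seed of miR-291a-3p. The seed, bases 2 to 8 of a microRNA, pairs with target mRNAs, and mmu-miR-294-3p, mmu-miR-295-3p, mmu-miR-302b-3p and mmu-miR-302d-3p have the same one. The mature strand comes from RefSeq (GRCm38.p6, chromosome 7, positions 3218968 to 3218989), with the seed in capitals. The sites of Irf2, Irf9 and Stat2 follow from 5′ to 3′ on the strand of the mRNA, with the seed match in capitals between flanking bases. They are shown because these are the 3 of the 9 genes with a match of 7 or 8 bases.
mmu-miR-291a-3p: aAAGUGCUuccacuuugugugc
Irf2, 8mer: ccttatcttgaAGCACTTAcaataggcctt
Irf9, first 7mer-m8: cttgtaatctcAGCACTTggaagacagac
Irf9, second 7mer-m8: ctctaaatctaAGCACTTtatatatttta
Stat2, 7mer-m8: aatggtttctgAGCACTTgggaattactc

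The Irf2 site lies at chr8:46846664-46846671 (GRCm38, plus strand), exonic, from base 442 to base 449 of the 1236 bases of the 3' UTR, in 1 of 2 coding transcripts with an annotated 3' UTR. Those of Irf9 are at chr14:55609205-55609211 and chr14:55609378-55609384 (plus strand), the first in 4 of 4 such transcripts and the second in 3. That of Stat2 is at chr10:128292124-128292130 (plus strand), in both of its transcripts. Irf1, Jak1 and Ifnar2 hold only a 6-base match (GCACTT), and Ifnar1, Irf3 and Irf7 none. The 3 of the 9 genes with a match of 7 or 8 bases stand beside 22.4% of 11585 tested genes with an annotated 3' UTR. Of these 11585 genes, 3.9% have an 8mer as their best site, 15.1% a 7mer-m8 and 3.43% a 7mer-A1. Over these genes the median log2 change was -0.12 with an 8mer, -0.061 with a 7mer-m8, -0.05 with a 7mer-A1, -0.024 with a 6mer and 0.021 with no match. Among the 9, Irf2 with the 8mer and Stat2 with a 7mer-m8 fell, Irf9 with 2 such sites did not pass, and Jak1 and Irf1 with a 6-base match fell. A match is a sequence feature of the annotation, and binding was not measured.

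**Figure D2:**
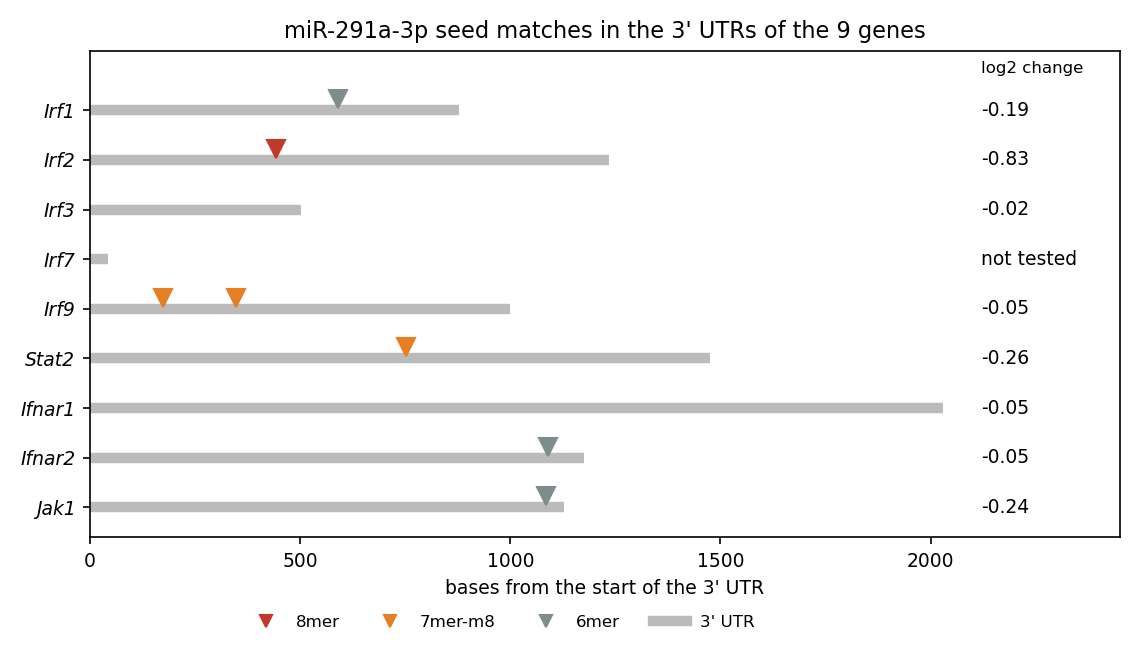
Seed matches of miR-291a-3p in each of the 9 genes, drawn along the 3' UTR of the coding transcript whose open reading frame is longest; the x axis counts bases from the start of the 3' UTR, triangles mark 8mer, 7mer-m8 and 6mer matches, and the column at the right gives the log2 change, mimic over control. Irf2, with the 8mer, has the lowest value (-0.83) and Irf9, with 2 matches of 7 bases, has -0.05.

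Irf1, which encodes the activator that shares binding sites with IRF2 (chr11:53770014-53778374, plus strand; this and the following gene positions are GRCm38), fell much less. It had 21.2, 18.9 and 18.0 CPM in the mimic libraries, against 22.6, 22.6 and 20.8 CPM in the control libraries. Mimic replicate 1 lay above control replicate 3, so the groups overlapped. The log2 change was -0.19 ± 0.06 (SE; adjusted p = 0.0108, edgeR). It rests in part on mimic replicate 3, without which it was -0.13 (adjusted p = 0.0999, edgeR), and it also did not pass with the DESeq2 Wald test (adjusted p = 0.0741) or with limma on log2(FPKM + 0.1) (adjusted p = 0.0633). Within a library, the level of Irf1 in FPKM (fragments scaled to transcript length and library size) was 2.9, 2.69 and 2.65 times that of Irf2 in the mimic libraries, against 1.8, 1.8 and 1.67 times in the control libraries. The ratio was higher in 3 of 3 mimic libraries than in any control library, by 0.64 on the log2 scale. An exact two-sided permutation test gave p = 0.1, the smallest that 3 against 3 libraries allow.

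Of the genes of the factors that switch on interferon genes, Irf3 showed little difference and Irf7 had too few counts to be tested. Irf3 (chr7:44997648-45002848, plus strand) had 21.1, 21.6 and 21.4 CPM in mimic libraries and 22.1, 21.7 and 21.3 CPM in control libraries. The groups overlapped, and the log2 change of -0.02 had a 95% interval of -0.13 to 0.09 (adjusted p = 0.765, edgeR). Irf3 shares 88 exonic bases with Bcl2l12 on the opposite strand, and the sources used here do not say whether strand was used in counting. Irf7 (chr7:141262706-141266481, minus strand) had 6, 3 and 6 counts in the mimic libraries, against 8, 5 and 6 in the control libraries. At this depth no difference in Irf7 was detectable, and 45 of its exonic bases lie opposite Phrf1, which averaged 61.7 CPM, so that some of these counts could belong to that gene.

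Few reads came from the interferon genes analysed. The 5, Ifna2, Ifna13, Ifnab, Ifne and Ifnz, together held 5 counts in the 3 mimic libraries and 12 in the 3 control libraries, with at most 4 for 1 gene in 1 library. The other 16 listed interferon genes, Ifnb1 and Ifng among them, were not analysed here.

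Stat2, which encodes the subunit of ISGF3 that carries its main activation domain (chr10:128270559-128292849, plus strand), fell. It had 19.2, 19.3 and 19.2 CPM in the mimic libraries, against 23.8, 24.0 and 21.2 CPM in the control libraries. The groups did not overlap, though control replicate 3 stood closer to the mimic libraries than the other controls. The log2 change was -0.26 ± 0.06 (SE; adjusted p = 0.000379, edgeR).

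Irf9, whose product gives ISGF3 its DNA contact (chr14:55603571-55610030, plus strand), did not pass. It had 8.22, 8.24 and 7.38 CPM in the mimic libraries, against 7.67, 8.74 and 8.3 CPM in the control libraries, and the groups overlapped. Its log2 change was -0.05 with a 95% interval of -0.24 to 0.13 (adjusted p = 0.66, edgeR). At 205 to 228 counts per mimic library and 231 to 279 per control library it was the least expressed gene tested of the 9, and a fall of the size seen in Stat2 lies just outside the interval. Irf9 shares 123 exonic bases with its same-strand neighbour Rnf31 (log2 change -0.29, adjusted p = 0.02, edgeR), whose reads the authors' counting could have split with it.

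The genes of the receptor chains showed little difference. Ifnar1 (chr16:91485238-91507441, plus strand) had 32.2, 33.0 and 33.5 CPM in the mimic libraries, against 34.8, 34.2 and 33.1 CPM in the control libraries. Ifnar2 (chr16:91372783-91405589, plus strand) had 27.2, 27.3 and 26.4 CPM in the mimic libraries, against 27.6, 28.9 and 27.3 CPM in the control libraries. In each gene the lowest control library was level with or below the highest mimic library, so the groups overlapped, and each log2 change was -0.05, with intervals of -0.13 to 0.04 for Ifnar1 (adjusted p = 0.408, edgeR) and -0.15 to 0.05 for Ifnar2 (adjusted p = 0.417, edgeR). A p that misses the threshold does not show that the levels were equal, and within this fit the intervals reach falls of 0.13 and 0.15 on the log2 scale. Scaled by total counts alone, the log2 changes were -0.10 for Ifnar1 (adjusted p = 0.0507, edgeR) and -0.11 for Ifnar2 (adjusted p = 0.0653, edgeR). Ifnar2 shares 315 exonic bases with its same-strand neighbour Gm21970, which averaged 10.9 CPM and fell by 0.31 on the log2 scale (adjusted p = 0.00435, edgeR).

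Jak1, the kinase that IFNAR2 holds and that the interferon gamma receptor and several cytokine receptors also use (chr4:101152367-101265282, minus strand), fell with the tightest estimate. It had 135, 131 and 129 CPM in the mimic libraries, against 154, 155 and 158 CPM in the control libraries. The groups did not overlap, and the log2 change was -0.24 ± 0.03 (SE; adjusted p = 1.99e-09, edgeR). With 3379 to 5313 counts per library it was the deepest measured of the 9 genes.

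The order of the levels, compared per length as the authors' FPKM, was the same in both groups. Jak1 led with a mean of 15.8 FPKM in mimic and 19.1 FPKM in control libraries. In mimic libraries it was followed by Ifnar2 at 7.01, Irf3 at 5.38, Ifnar1 at 4.8, Irf1 at 4.22, Stat2 at 2.81, Irf2 at 1.53, Irf9 at 1.28 and Irf7 at 0.0467 FPKM. In control libraries the means were 7.44 for Ifnar2, 5.59 for Irf3, 5.08 for Ifnar1, 4.91 for Irf1, 3.45 for Stat2, 2.8 for Irf2, 1.36 for Irf9 and 0.0467 FPKM for Irf7. A large gap thus set Jak1 apart from the receptor genes, and Irf7 lay far under the rest. Neighbours in this order did not overlap over the libraries of a group, except Ifnar1 and Irf1 in the control libraries. Irf2 ran from 1.47 to 1.59 FPKM in mimic libraries, close above Irf9 at 1.17 to 1.34, whereas in control libraries it ran from 2.77 to 2.82, clear of Irf9 at 1.26 to 1.45.

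In the rest of the IRF, STAT, JAK and interferon receptor families, several partner genes of the 9 also fell. Of 11 tested, 6 fell and 1 rose, with a median log2 change of -0.15, while of all genes tested 24.8% fell and 24.3% rose. Tyk2, the kinase that IFNAR1 holds, fell by 0.31 on the log2 scale, to 19.4 ± 0.195 CPM in mimic libraries, against 24.0 ± 0.697 CPM in control libraries (SD, n = 3 each). Jak2 and Jak3, kinases of cytokine receptors, fell by 0.35 and 0.58. Stat5b and Stat6, which respond to growth hormone and interleukin-4, fell by 0.21 and 0.13.

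Ifngr2, the signalling chain of the interferon gamma receptor, stands in the same cluster of receptor genes on chromosome 16 as Ifnar2, Il10rb and Ifnar1. It had 21.7, 20.6 and 21.4 CPM in the mimic libraries, against 32.9, 32.7 and 31.6 CPM in the control libraries. The groups were well apart, with a log2 change of -0.61 ± 0.05 (SE; adjusted p = 6.07e-12, edgeR). Its 3' UTR holds a 7mer-m8 match at chr16:91563866-91563872 (GRCm38, plus strand), whereas Ifnar1 holds none:
Ifngr2, 7mer-m8: cctttattcccAGCACTTgaaagcagagg
Of the other family genes that fell, Jak2, Jak3, Tyk2, Stat5b and Stat6 hold no match, and Stat3, which rose, holds 2 of 6 bases. The level of Ifngr2 in FPKM was 1.07, 0.984 and 1.01 times that of Ifnar1 in the mimic libraries, against 1.49, 1.5 and 1.51 times in the control libraries. The groups did not overlap, with a difference of -0.56 on the log2 scale (exact two-sided permutation test, p = 0.1, the smallest possible). This ratio was picked with its values already seen, and 3 ratios were computed in all, of which 1 is not reported. The ligand-binding chain Ifngr1 did not pass (log2 change -0.04, interval -0.15 to 0.07). Il10rb had 0 to 1 counts per library and shares 569 exonic bases with Gm21970.

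Stat3, which cytokines of the interleukin-6 family activate, was the family gene that rose. It had 34.6, 33.4 and 33.7 CPM in the mimic libraries, against 28.4, 26.2 and 27.9 CPM in the control libraries, without overlap (log2 change 0.30 ± 0.05, SE; adjusted p = 2.24e-06, edgeR). Irf5, Irf8 and Stat5a did not pass, with log2 changes of -0.03, -0.04 and -0.15 and at most 5.09 CPM in any library. Irf5 shares 411 exonic bases with Tnpo3 on the opposite strand. Tnpo3 averaged 193 CPM and rose (log2 change 0.21, adjusted p = 1.48e-08, edgeR). Stat5a shares 72 exonic bases with Stat3, also on the opposite strand. Some counts of Irf5 and Stat5a could belong to these neighbours, which was not tested. Irf4, Stat4 and Ifnlr1 were not analysed here.

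**Figure D3:**
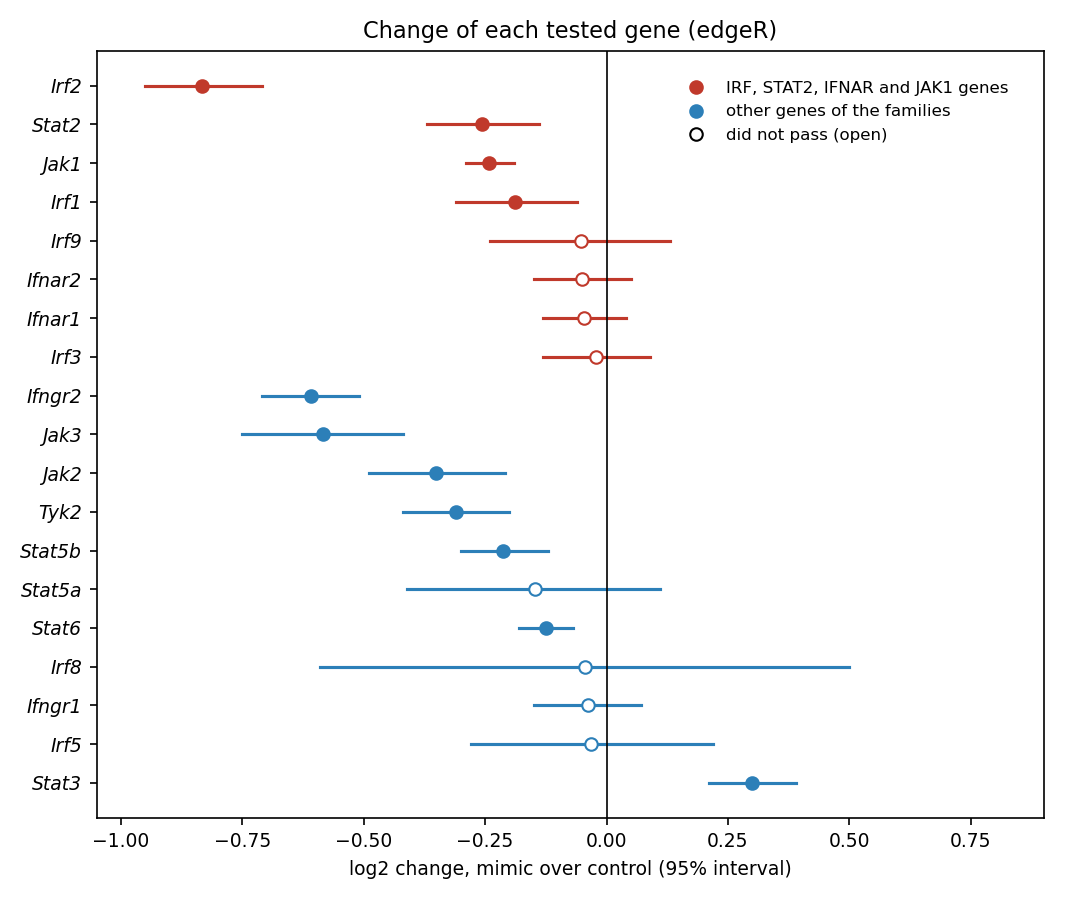
log2 change, mimic over control, of each tested gene with its 95% interval (edgeR); the upper rows are the 8 tested genes among Irf, Stat2, Ifnar and Jak1, the lower rows the 11 other genes of the families, and open circles did not pass. Irf2 lies lowest at -0.83, Ifnar1, Ifnar2, Irf3 and Irf9 sit beside 0, and Stat3 at 0.30 is the gene that rose.

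Upstream of IRF3 and IRF7 act sensors of nucleic acid with their adaptors and kinases. Of 19 of their genes tested 13 fell, 6 did not pass and 0 rose (edgeR), with a median log2 change of -0.20. Over all genes tested 24.8% fell and 24.3% rose. At an unadjusted p under 0.05 (edgeR), 14 of the sensing genes fell and 0 rose. The share of all genes at that looser threshold was not computed, and the shares above are for an adjusted p. DESeq2 called 12 of them fallen and 0 risen, against 2424 fallen and 2805 risen of the 13738 genes it tested. The RNA sensor gene Rigi and the Toll-like receptor adaptor gene Ticam1 each fell by 0.51, the kinase gene Irak1 by 0.23 and the DNA-sensing adaptor gene Sting1 by 0.20. Tbk1, the kinase that phosphorylates IRF3, named with its value already seen, did not pass (log2 change -0.08, adjusted p = 0.0772, edgeR).

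Negative regulators of the pathway, listed together with IRF2-binding proteins, split. Of 18 tested, 5 fell and 6 rose, with a median of 0.03 on the log2 scale. Of all genes tested 24.8% fell and 24.3% rose, so a split of this kind is not particular to the list. Those that fell were the transcriptional cofactor gene Trim24 (-0.34), Pias3, an inhibitor of STAT3 (-0.32), Irf2bp2, which encodes a corepressor that binds IRF2 (-0.21), the ubiquitin ligase gene Stub1 (-0.19) and Usp18, which encodes a protease that removes ISG15 and blocks IFNAR2 signalling (-1.24, at 0.224 ± 0.0513 CPM in mimic and 0.533 ± 0.0781 CPM in control libraries). Usp18 did not pass with the DESeq2 Wald test (adjusted p = 0.0833; 0.0053 to 0.0833 over its alternatives), and its log2 change was -0.13 with limma on log2(FPKM + 1). Those that rose, named after their values were seen, were the phosphatase genes Ptpn1 (0.22) and Ptpn11 (0.13), Irf2bpl (0.19), Socs1, an inhibitor of JAK kinases (0.18), Sh2b3 (0.17) and Pias2 (0.17). Fewer rose with limma on FPKM, 2 with a pseudocount of 1 and 1 with 0.1.

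Downstream stand the interferon-stimulated genes. Of 28 tested 23 fell and 1 rose, with a median log2 change of -0.62, while of all genes tested 24.8% fell and 24.3% rose. The 17 other genes of this list, Mx1, Ifit1 and Rsad2 among them, had too few counts to be tested. Ifitm3, an antiviral membrane protein gene, had 206 ± 2.19 CPM in mimic and 307 ± 5.56 CPM in control libraries (SD, n = 3 each). B2m, the light chain of MHC class I, had 360 ± 5.6 CPM in mimic and 449 ± 11.8 CPM in control libraries. Tap2, which encodes a subunit of the peptide transporter, fell by 0.94 on the log2 scale, and Psmb8, an immunoproteasome subunit gene, fell by 1.56. The gene that rose, Adar (log2 change 0.10, adjusted p = 0.0311, edgeR), did not pass in 8 of 14 alternative settings. Rigi and Trim25 are counted in the sensing list too, and Usp18 among the negative regulators. The leukocyte markers Lyz2 and Cd14 also fell (by 0.99 and 0.61 on the log2 scale), while Csf1r and Cd68 did not pass. The median over the 4 leukocyte markers tested was -0.55, and their part in the sensing and interferon-stimulated lists was not tested. These lists are described by their counts, with no test of the list.

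**Figure D4:**
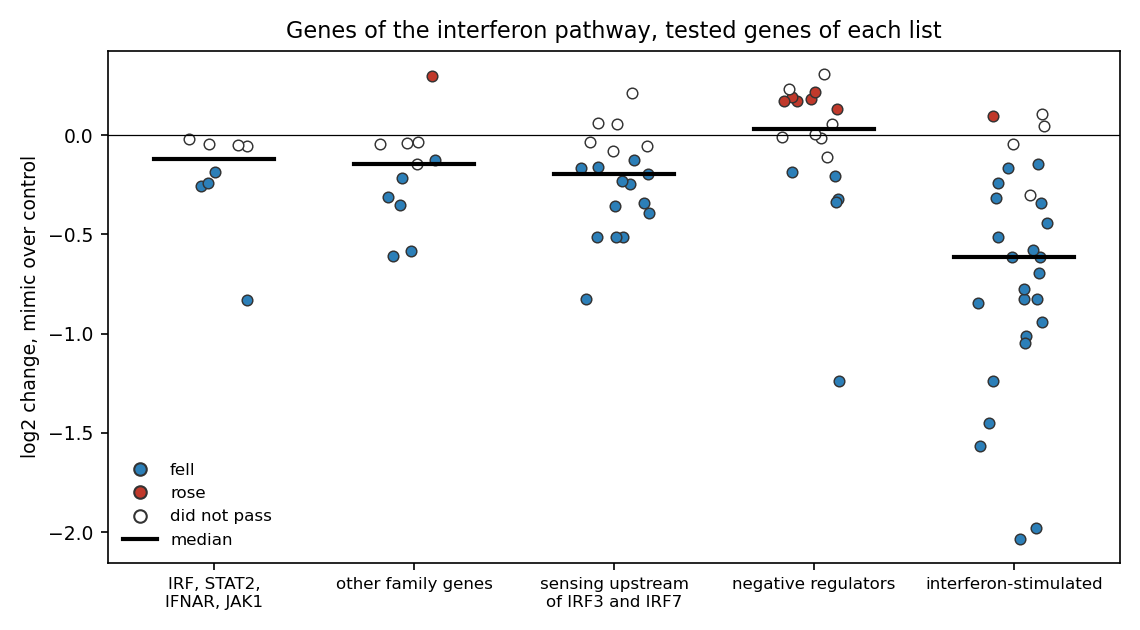
log2 change, mimic over control, of each tested gene, by list; points are genes, filled where they fell or rose and open where they did not pass, with the median of the list as a bar. Medians run from -0.62 for interferon-stimulated genes to 0.03 for negative regulators, with -0.12 for the 8 tested genes among Irf, Stat2, Ifnar and Jak1.

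The promoter windows of some of the genes hold motifs that interferon-activated factors are known to bind. RefSeq windows (GRCm38.p6, 250 bases before to 50 after the start) matched all 9 genes, 11 windows in all. The ISRE was searched as GAAA, any 2 bases and GAAA again, and the gamma-activated site (GAS), which STAT dimers bind, as TTCNNNGAA, each on either strand. An ISRE match occurs in 3.44% of 32851 mouse promoter windows of 300 bases and a GAS match in 8.3%. Irf2 holds 1 of each and Stat2 an ISRE match, while Irf1, Ifnar1 and Ifnar2 hold a GAS match each. Stretches of 60 bases are shown for 3 genes that fell and 1 that did not pass, 5′ to 3′ in the direction of transcription, with the matches in capitals.
Irf1, GAS, chr11:53769898-53769957, plus strand: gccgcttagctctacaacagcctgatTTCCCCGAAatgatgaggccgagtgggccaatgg
Irf2, ISRE then GAS, chr8:46739495-46739554, plus strand: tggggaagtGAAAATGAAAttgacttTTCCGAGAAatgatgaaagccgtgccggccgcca
Stat2, ISRE, chr10:128270251-128270310, plus strand: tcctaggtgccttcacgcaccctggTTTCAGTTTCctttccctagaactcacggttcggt
Ifnar1, GAS, chr16:91485184-91485243, plus strand: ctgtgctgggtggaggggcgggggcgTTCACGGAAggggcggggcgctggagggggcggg

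The matches begin 90 bases before the start in Irf1, 241 and 224 in Irf2, 222 in Stat2 and 5 in Ifnar1. Jak1, which fell, and Irf3, Irf7 and Irf9 have no match of these letters in these windows. Matches thus stand in genes that fell and in genes that did not pass.

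The libraries held 25376993 to 29058948 counts in the mimic group and 28318155 to 32963986 in the control group. Of 11 markers of leukocytes, which also express these genes, 9 were analysed. Their summed level was 11 to 11.9 CPM in mimic libraries and 17.5 to 19.9 CPM in control libraries, most of it Cd14 and Lyz2, which fell, while Csf1r and Cd68 did not pass. Ptprc, Adgre1 and Itgam were at 0 counts in every mimic library. In control replicate 2 these 3 had 4, 7 and 4 counts, and Itgam had 4 in control replicate 1. This difference goes the same way as that of Irf2, Irf1, Stat2 and Jak1 and of most genes of the sensing and interferon-stimulated lists. Without control replicate 2 the log2 changes of Irf2, Irf1, Stat2 and Jak1 were -0.83, -0.17, -0.23 and -0.25, and all 4 still passed (largest adjusted p = 0.0407, edgeR). That refit leaves the difference in Cd14 and Lyz2, which were lower in every mimic library than in any control library. The part of the leukocyte markers in these changes was not tested. Of 10 endothelial and fibroblast markers 8 were analysed, with summed levels of 54.2 to 55.3 CPM in mimic and 53.4 to 59.1 CPM in control libraries, mostly Pdgfra and Pdgfrb. Their members moved in opposite directions: of 5 tested, Pdgfra fell (log2 change -0.58), while Pdgfrb (0.32) and the low-count genes Lum (1.29) and Acta2 (2.34) rose and Pecam1 did not pass. Cdh5, Tek and Dcn had 0 to 3 counts per library. The part of these changes in the results was not tested. Of 10 markers of lung epithelium and carcinoma 6 were analysed, at 550 to 566 CPM in mimic and 489 to 504 CPM in control libraries. Nearly all of this was Krt8, a keratin of simple epithelia in general, which rose (log2 change 0.16), as did Krt18 (0.90). The epithelial adhesion genes Epcam and Cdh1 had 0 to 5 counts per library and the surfactant gene Sftpb 0 to 1. Napsa, an aspartic protease gene of lung epithelium, had 0.371 ± 0.13 CPM in mimic and 1.02 ± 0.147 CPM in control libraries (SD, n = 3 each) and fell (log2 change -1.46, adjusted p = 0.000174, edgeR). Nkx2-1, Sftpc, Sftpa1 and Scgb1a1 were not analysed here, so the check of the labelled lung origin rests on few genes.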

How the data were processed

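Titles put the 6 libraries into their groups. By the labels' protocols, captured mRNA of TRIzol-extracted RNA became strand-specific libraries. HISAT2, DESeq2 and GRCm39 are named in the submitters' processing notes, and the counting tool and its strand setting are not known from the sources used here. The authors deposited counts per gene as whole reads. They also deposited FPKM values per gene.

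Counts were tested with edgeR 4.0.16 (R 4.3.3), using filterByExpr, TMM, glmQLFit and glmQLFTest over 13779 genes. CPM are TMM-scaled, the SE is the log2 change over the square root of F, and intervals use the model's degrees of freedom. FPKM served for levels and ratios, with permutation tests in scipy 1.17.1. Depth was 25376993 to 32963986 counts per library, and the biological coefficient of variation was 2.02%. Replicates of a group differed beyond sampling noise (mean chi-square per gene 1.84 to 2.23). Seed sites were sought after the annotated stop codon of coding transcripts of GENCODE M21 (GRCm38), not the build of the counts, so coordinates were used for sequences and overlaps only. The count test was tested on simulated data.

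The 9 genes and the lists were chosen with earlier results of these data known, and some listed genes are not reported here and are left out of the lists' counts. The text names all 9, the tested genes of the families, up to 4 called genes of each other list with the smallest adjusted p, called genes against the majority of their list, detected markers and the 3 genes most like Irf2 among those of at least 2 CPM. Other genes named are those that share exonic bases with a reported gene, genes counted in 2 lists, examples of untested genes, and genes said in the text to be named with values seen.

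The refits tried were DESeq2 size factors, scaling by total counts, the Wald test of DESeq2 1.42.0, all genes unfiltered, a minimum of 2 CPM in 3 libraries, limma 3.58.1 on log2(FPKM + 1) or log2(FPKM + 0.1), a block for the replicate number, and leaving out single libraries. A stricter adjusted p of 0.01 was also applied.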

Additional observations from a re-analysis of the deposited data

How the results depend on the processing

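The calls of Irf2, Stat2 and Jak1 held in each of 14 refits, with log2 changes of -0.89 to -0.58, -0.32 to -0.22 and -0.30 to -0.22, while Ifnar1, Ifnar2, Irf3 and Irf9 passed in none. Irf1 had -0.18 with the DESeq2 Wald test and -0.22 with limma on log2(FPKM + 0.1), where it did not pass, and -0.25 to -0.13 with single libraries left out. The number of fallen genes among the 9 was 3 in those fits, without mimic replicate 3 and at an adjusted p under 0.01, and 4 otherwise. The cause was not tested. Risen negative regulators, 6 in the fit reported, were 2 by limma with a pseudocount of 1 and 1 with a pseudocount of 0.1. The risen interferon-stimulated gene was lost (0) with total counts, the DESeq2 Wald test, limma on either FPKM scale and an adjusted p under 0.01, and its count was 0 to 1 with single libraries left out. Over all genes, 3423 fell and 3349 rose in the fit reported, 4444 and 2341 with total counts, 3580 and 2235 by limma with a pseudocount of 1, and 3374 and 2009 with 0.1. Same-numbered libraries deviated together weakly (correlations of 0.02, 0.075 and 0.055), each most with its own number, a hint from the data only. With the replicate number as a block 4 of the 9 genes fell, and over all genes 3484 fell and 3403 rose. The transcript with the longest coding sequence gave the same 3 genes with a site of 7 or 8 bases. Depth limits Irf7 and the interferon genes.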
